A study of Betula luminifera with 2 samples.

Results

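The microRNAs miR396 and miR394 of Betula luminifera, a timber birch, were described from 1 small RNA library and 1 degradome library. Both were made from pooled root, stem and leaf RNA of tissue-culture seedlings of clone G49#, 2 months old, so levels in leaf alone could not be read. Neither library has a replicate, and no test between samples was possible. Members were the entries matched to the miRNA registry miRBase named for either family, and the degradome alignments of such miRNAs. This gave 8 of 569 entries, with 6 of 505 distinct mature sequences, and 5 of 108 alignments, at 4 of 69 distinct cleavage positions. The small RNA table held 607592 reads in all, and the degradome table listed 138872 reads summed over 64 transcripts. A degradome read that matches several places was counted in full on each transcript.

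MicroRNAs are cut from the 5′ arm (5p) or the 3′ arm (3p) of a hairpin precursor and guide the slicing of transcripts that pair with them. In Arabidopsis, miR396 acts on transcripts of growth-regulating factors (GRFs), transcription factors that promote cell division in young leaves together with their GIF coactivators. Also in Arabidopsis, miR394 acts on the transcript of LCR, an F-box protein, and the pair is known for its part in leaf shape and in the stem cells of the shoot tip. A degradome library collects the 5′ ends of cut polyadenylated transcripts, and a slice by a miRNA leaves such ends opposite base 10 of the miRNA, counted from its 5′ end.

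The mature sequences are printed because 5p, 3p and the target sites below are read against them. They run 5′ to 3′ with the seed, bases 2 to 8, in capitals, under the names of the deposited table, whose prefixes stand for the species of the miRBase entry.
gma-miR394a-5p: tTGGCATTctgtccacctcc
mtr-miR396a-5p, also listed as mtr-miR396b-5p_1ss21GT: tTCCACAGctttcttgaactt
gma-miR396b-5p_R+2: tTCCACAGctttcttgaacttct
mtr-miR396a-3p_L-1_1ss20GC: cTCAAGAAagctgtgggaca
gma-miR396j_L-1R+2_1ss9TA: tTCAAGAAagctgtggaaaatt
mtr-miR396b-3p: gTTCAATAaagctgtgggaag
The 2 sequences of the miR396 5p arm shared 1 seed, and no other sequence of the table carried it. Both 3p sequences that lay on a contig shared another seed. The seed of mtr-miR396b-3p recurred in 1 other sequence of the table, and that of miR394 in none. The last 2 nt of gma-miR396b-5p_R+2 are its only difference from the 21-nt form.

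miR396 was the more abundant of the pair. It had 1845.3 reads, 0.304% of all listed reads (exact binomial interval at 95%, 0.290 to 0.318%), against 170 reads or 0.0280% (0.0239 to 0.0325%) for miR394, a ratio of 10.9. Such intervals cover counting error alone, as PCR copies were not marked and reads are not independent molecules. Fractional totals arise because reads shared by several entries were divided among them in the deposited table. The 170 reads of miR394 are the sum of 2 entries of 85, which may be the same reads listed at both loci. With the highest entry of each sequence in place of the sum, the shares were 0.0142% for miR394 and 0.175% for miR396.

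The reads of miR396 came largely from the entries of its 21-nt 5p sequence, with 1592 reads or 86.3% of the family (84.6 to 87.8%). A listed value counts the isoform reads of an arm, so each sequence here stands for its cluster. By reads this sequence was at place 13 among the 505 of the table. The 23-nt 5p form had 1.33 reads. On the 3p arm, mtr-miR396b-3p had 172 reads, mtr-miR396a-3p_L-1_1ss20GC had 49 and gma-miR396j_L-1R+2_1ss9TA had 31. All 3 of these 3p sequences were above the table's median of 9.5 reads per sequence. That median includes sequences without a miRBase match, a wider set than the members were drawn from. The 3p arm as a whole held 252 reads, 13.7% of the family (12.1 to 15.3%), so 5p reads outnumbered 3p reads 6.32 to 1. miR394 had 1 listed sequence, of the 5p arm, and no 3p sequence of it was listed. The plot of reads by sequence shows the 5p form of miR396 apart from the rest, with miR394 and mtr-miR396b-3p side by side.

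**Figure D1:**
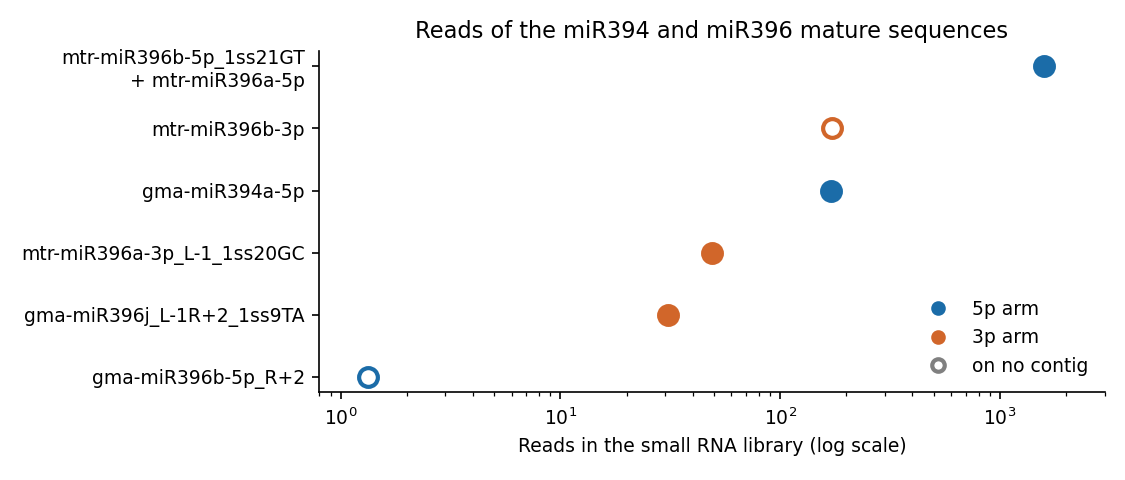
Reads listed under each miR394 and miR396 mature sequence in the small RNA library, isoforms included, on a log scale, coloured by hairpin arm. Open circles are sequences that the table places on no contig. The 21-nt 5p sequence of miR396 lies at 1592 reads, the sequences next in reads at 172 and 170, and the lowest at 1.33.

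The loci of both families are shown as the precursors that the table places on genome contigs, 2 for each family. They are given 5′ to 3′ on the listed strand, with the stretches that correspond to listed mature sequences in capitals. The contigs carry no gene annotation in the files used here.
miR394, contig_186808, plus strand, positions 874 to 1027: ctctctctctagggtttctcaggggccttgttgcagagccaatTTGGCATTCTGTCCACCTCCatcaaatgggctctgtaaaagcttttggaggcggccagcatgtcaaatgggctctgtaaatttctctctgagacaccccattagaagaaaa
miR394, contig_275290, plus strand, positions 484 to 616: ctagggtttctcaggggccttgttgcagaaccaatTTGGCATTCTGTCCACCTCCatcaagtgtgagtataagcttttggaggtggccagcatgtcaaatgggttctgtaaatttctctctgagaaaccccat
miR396, contig_216826, minus strand, positions 328 to 470: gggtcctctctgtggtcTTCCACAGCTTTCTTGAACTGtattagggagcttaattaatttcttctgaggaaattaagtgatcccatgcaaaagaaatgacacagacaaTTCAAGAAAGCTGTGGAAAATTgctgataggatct
miR396, contig_229199, minus strand, positions 532 to 659: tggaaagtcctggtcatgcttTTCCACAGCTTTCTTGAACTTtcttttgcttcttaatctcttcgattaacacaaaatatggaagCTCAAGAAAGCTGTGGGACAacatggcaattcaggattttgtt
The pair of miR394 precursors was identical at 125 of 133 aligned bases (94.0%), with 21 bases of the longer one facing a gap. The pair of miR396 precursors was identical at 97 of 114 aligned bases (85.1%), with 43 gapped.

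The table listed both arms at each miR396 hairpin, with the 5p isoform reads allocated to the loci by the authors. On contig_216826 the entries held 797.5 reads for 5p and 31 for 3p, a 3p share of 3.74% (2.56 to 5.27%). On contig_229199 they held 794.5 reads for 5p and 49 for 3p, a 3p share of 5.81% (4.33 to 7.60%). The intervals of both loci overlap, and both shares rest on that allocation, so how many 5p reads came from either locus cannot be told. The listed 5p sequence matched contig_229199 exactly. At contig_216826 it differed from the genome by G21T, counted from 1 at the 5′ end of the 5p stretch with the genome base first, and the form that ends as that contig does was not among the listed mature sequences. The 172 reads of mtr-miR396b-3p, 68.3% of all 3p reads (62.1 to 74.0%), lay on no contig and were listed with a precursor from another species. With placed sequences alone, the 3p share of the family was 4.78%.

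The arms of each miR396 hairpin paired along most of their length in the listed folds. On contig_216826, 18 base pairs joined the arms across a loop region of 70 nt, and the 3′ ends extended by 3 nt on the 5p strand and by 4 nt on the 3p strand. On contig_229199, 17 base pairs joined the arms across 43 nt, with 3′ extensions of 3 nt on the 5p strand and 2 nt on the 3p strand. For miR394, 17 of 20 mature bases were paired on contig_186808 and 18 of 20 on contig_275290. The stretches opposite the mature miR394, aggcggccagcatgtcaaat on contig_186808 and aggtggccagcatgtcaaat on contig_275290, are shown because they are where its 3p sequence would lie. They differed by C4T, counted from 1 at the 5′ end of the stretch with the contig_186808 base first. The folding energy index, the free energy per length and GC content, was 1 and 1.2 for miR394 and 1.1 for both miR396 precursors, against a median of 1 over the 53 matched precursors on contigs (range 0.5 to 1.5). The arc plot of the precursors shows these positions.

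**Figure D2:**
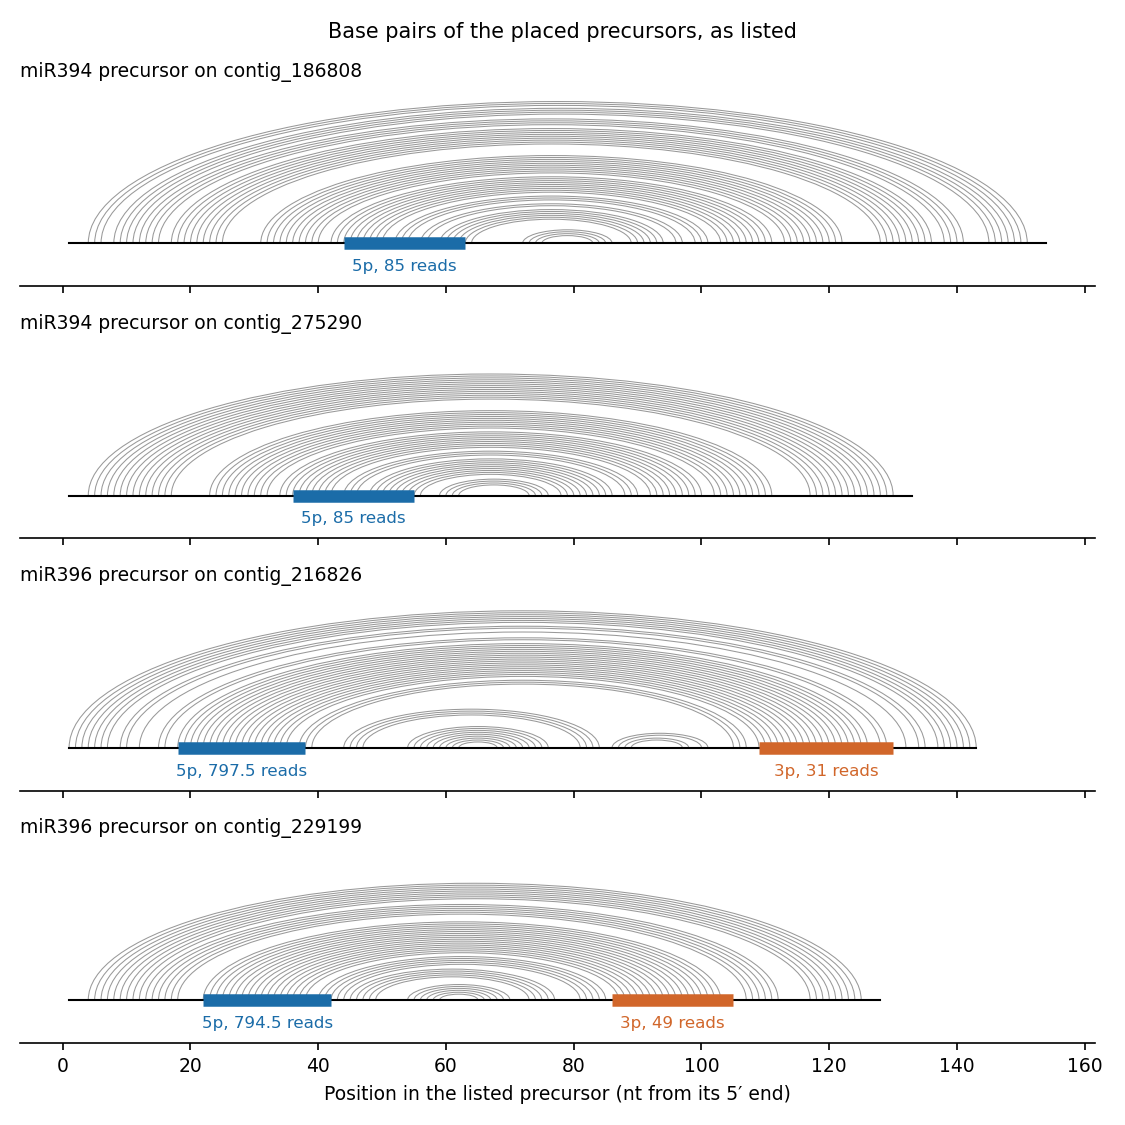
Base pairs (grey arcs) of the 4 placed precursors as the deposited table folds them, by position in nt from the precursor's 5′ end. Blue bars mark the 5p and orange bars the 3p mature sequence, with the reads of that entry. Both arms are listed at each miR396 hairpin, with 797.5 and 31 reads on contig_216826 and 794.5 and 49 on contig_229199, and the 5p alone at the miR394 hairpins, 85 reads each. The miR396 5p values are the authors' entries for 1 listed sequence, which matches contig_229199 exactly and contig_216826 with 1 mismatch. These entries count isoform reads and are unequal, so they are not an even division of that sequence's reads.

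A further sequence of the miR396 3p arm stood in the table outside the family. The candidate PC-3p-109598_4, which the authors predicted from a hairpin without a miRBase match, had 10 reads and the sequence gCTCAAGAaagctgtgggact, shown because it shares a run of 19 nt with mtr-miR396a-3p_L-1_1ss20GC. Its listed precursor was letter for letter the 128-nt miR396 precursor of contig_229199, from which it differed by A21T at its last base. It is not counted among the members here, and with it the 3p reads of that hairpin would be 59 in place of 49. The table places the candidate's copy at positions 406 to 533 of the same strand. The 2 bases where both placements overlap would read tt in the miR396 entry and tg in the candidate's, so the placements cannot both be right. This was the only one of 286 placed precursors given more than 1 place on a contig.

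Among 9 miRNA families known from leaf growth and patterning, miR396 was at place 4 and miR394 at place 6 by reads. Above them were miR166, which acts on homeodomain-leucine zipper genes of leaf polarity, with 520200 reads, miR156 of the juvenile phase with 18801.5, and miR319, which acts on TCP genes of the leaf margin, with 4754.5. miR164, which acts on NAC genes of organ boundaries, lay between the pair with 427 reads. miR390, which starts the trans-acting RNA pathway of leaf polarity, had 0.0272% of the reads, about as many as miR394. miR160 of auxin response had 134 reads and miR159, which acts on MYB genes, 123.5. The interval of miR394 (0.0239 to 0.0325%) overlapped those of miR390 (0.0232 to 0.0316%), miR160 (0.0185 to 0.0261%) and miR159 (0.0170 to 0.0243%), so its place among these neighbours is not fixed by the counts. The interval of miR396 overlapped no other in this list. The place of miR394 also rests on adding its entries of 85 reads each. If these were the same 85 reads listed at both loci, miR394 would be at place 9. Of 62 sequences with 2 entries, 39 had a value that was not whole, which shows that reads were divided for those, but both miR394 values are whole. The entries of the 21-nt sequence held 86.3% of miR396 reads. This was the lowest share of a main listed sequence among these 9 families, which ranged up to 100% for miR394. The other miR396 reads include the 172 of mtr-miR396b-3p, which lay on no contig. With placed sequences alone, the 3p share of miR396 was 4.78%, and this ranking was not repeated on placed sequences.

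**Figure D3:**
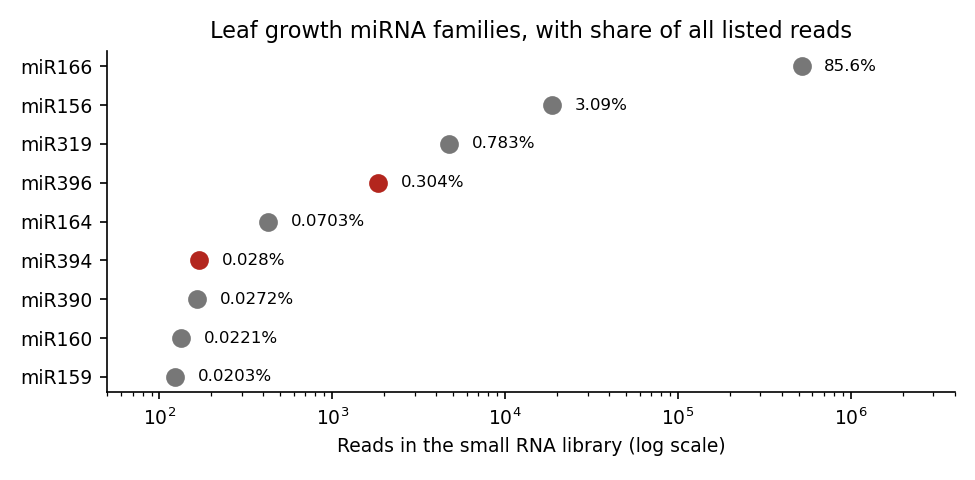
Reads of 9 leaf growth miRNA families in the small RNA library, on a log scale, with each family's share of all listed reads. miR396 and miR394 are in red. miR396 (0.304%) lies between miR319 (0.783%) and miR164 (0.0703%), and miR394 (0.0280%) lies beside miR390 (0.0272%).

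The degradome listed 1 target transcript for miR394 and 3 for miR396, of which 1 was for the 5p arm and 2 for the 3p arm. The files name these transcripts by assembly number, and their gene identity was not analysed here. The target sites are shown because they carry the pairing, written 5′ to 3′ with the base at the listed cleavage position in capitals.
Unigene6267, for gma-miR394a-5p, positions 530 to 549: ggcggcggacAgaaucccaa
Unigene10385, for the 21-nt miR396 5p sequence, positions 64 to 85: ccguucaagaaAgccuguggaa
Unigene211, for mtr-miR396b-3p, positions 689 to 708: cuuggcaagcUuuauugaaa
CL5726.Contig1, for mtr-miR396a-3p_L-1_1ss20GC, positions 248 to 268: ugccaccacagCuuucuugaa
In all 4 sites the listed position was opposite base 10 of the miRNA. How the authors chose the listed positions is not stated in the sources used here, so this is not read as a sign of slicing. A category from 0 to 4 in the authors' deposited table grades each position; the sources used here do not define it. Category 0 was given to the miR394 position and to none of the 3 miR396 positions. Of all 69 positions in the authors' deposited table, 33.3% were of category 0 and 37.7% of category 0 or 1, so the 1 of 4 found here is near the background. The p-value of the authors' deposited table was no higher than 0.05 at that same member position alone, against 39.1% of all positions.

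The miR394 site on Unigene6267, a transcript of 1112 nt, lay at the centre of a dense field of read ends. Its pairing left 17 of 20 miRNA bases matched, with bases 5, 15 and 18 unpaired, and base 5 is within the seed. Position 540 held 98 of the 9550 reads on the transcript, 1.03% (0.834 to 1.25%). It was the highest of 352 positions with reads, but position 502 held 94 and the neighbouring position 539 held 93. Between positions 540 and 502, position 540 took 51.0% of their reads (43.7 to 58.3%), an interval that includes equal shares. In all, 12 positions held more than 80 reads. The 20 nt of the site together held 1216 reads, 12.7% of the total on 1.80% of the length, and none of the 1093 windows of 20 nt on this transcript held more. The windows overlap, and the listing of the site rests on these same reads, so this is no separate evidence for it. The median read end lay 10 nt downstream of the listed position, with quartiles 42 nt upstream and 66 nt downstream, and 46.3% of reads lay within 50 nt. The authors' deposited table gave this site category 0 and p = 0.00647.

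The miR396 5p site on Unigene10385 was paired through the seed, and its transcript had the fewest reads of the 4. Of the 21 miRNA bases, 19 were matched, and the 2 unpaired ones were bases 20 and 21 at the 3′ end. An extra base of the transcript bulged out between miRNA bases 8 and 9. In Arabidopsis, the miR396 sites of GRF transcripts are likewise known to carry a bulged base. The 958-nt transcript had 8 degradome reads, with 3 at the listed position 75 (37.5%, 8.52 to 75.5%), 4 at position 87 and 1 at position 484. The listed position was therefore not the highest, and 8 reads are too few to separate it from position 87. The reads at all 3 positions matched this transcript alone. The authors' deposited table gave category 2 and p = 0.468, the same for both names of the sequence. The miRNA with 1592 small RNA reads thus had 3 of 8 degradome reads of its transcript at the listed site (37.5%). miR394, with 170 small RNA reads, had 98 of 9550 (1.03%). Counts and shares therefore order these sites oppositely, and neither compares how much is cut.

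The 3p sites had reads that did not stand out on their transcripts. On Unigene211, mtr-miR396b-3p matched 17 of 21 bases, with bases 1, 17 and 18 unpaired and 1 miRNA base bulged. Position 699 held 10 of 199 reads (5.03%, 2.44 to 9.05%). It shared place 6 with 2 other positions among 32, and positions 1723 and 2065 held 13 reads each. The nearest other read end was 14 nt upstream with 1 read. The authors' deposited table gave category 2 and p = 0.303.

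On CL5726.Contig1, a transcript of 448 nt, mtr-miR396a-3p_L-1_1ss20GC matched 18 of 20 bases, with bases 1 and 18 unpaired and a bulged transcript base. The listed position 259 held 1 of 2056 reads (0.0486%, 0.00123 to 0.271%), against 20 at position 258 and 56 at position 374. The single read did not match this transcript alone, and only 6 of the 2056 reads on it did. The authors' deposited table gave category 4 and p = 0.0527. This site contained a stretch of the miR396 5p sequence itself, shown in capitals in ugccaCCACAGCUUUCUUGAA. The run of 16 nt equals bases 3 to 18 of the 5p miRNA, and the next longest run of that miRNA in any of the 84 listed sites was 9 nt (median 4). The arms of a miRNA hairpin are largely complementary to one another, and this site was listed for its pairing with a 3p sequence. Likeness to the 5p sequence is thus not independent of that listing, and how far the listing sets it was not tested. Sites listed for other miRNAs are no like background. The site on Unigene211, listed for another 3p sequence, shared a run of 6 nt with the 21-nt 5p sequence. The 5p site on Unigene10385 in turn shared a run of 11 nt with gma-miR396j_L-1R+2_1ss9TA, in capitals in ccgUUCAAGAAAGCcuguggaa.

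**Figure D4:**
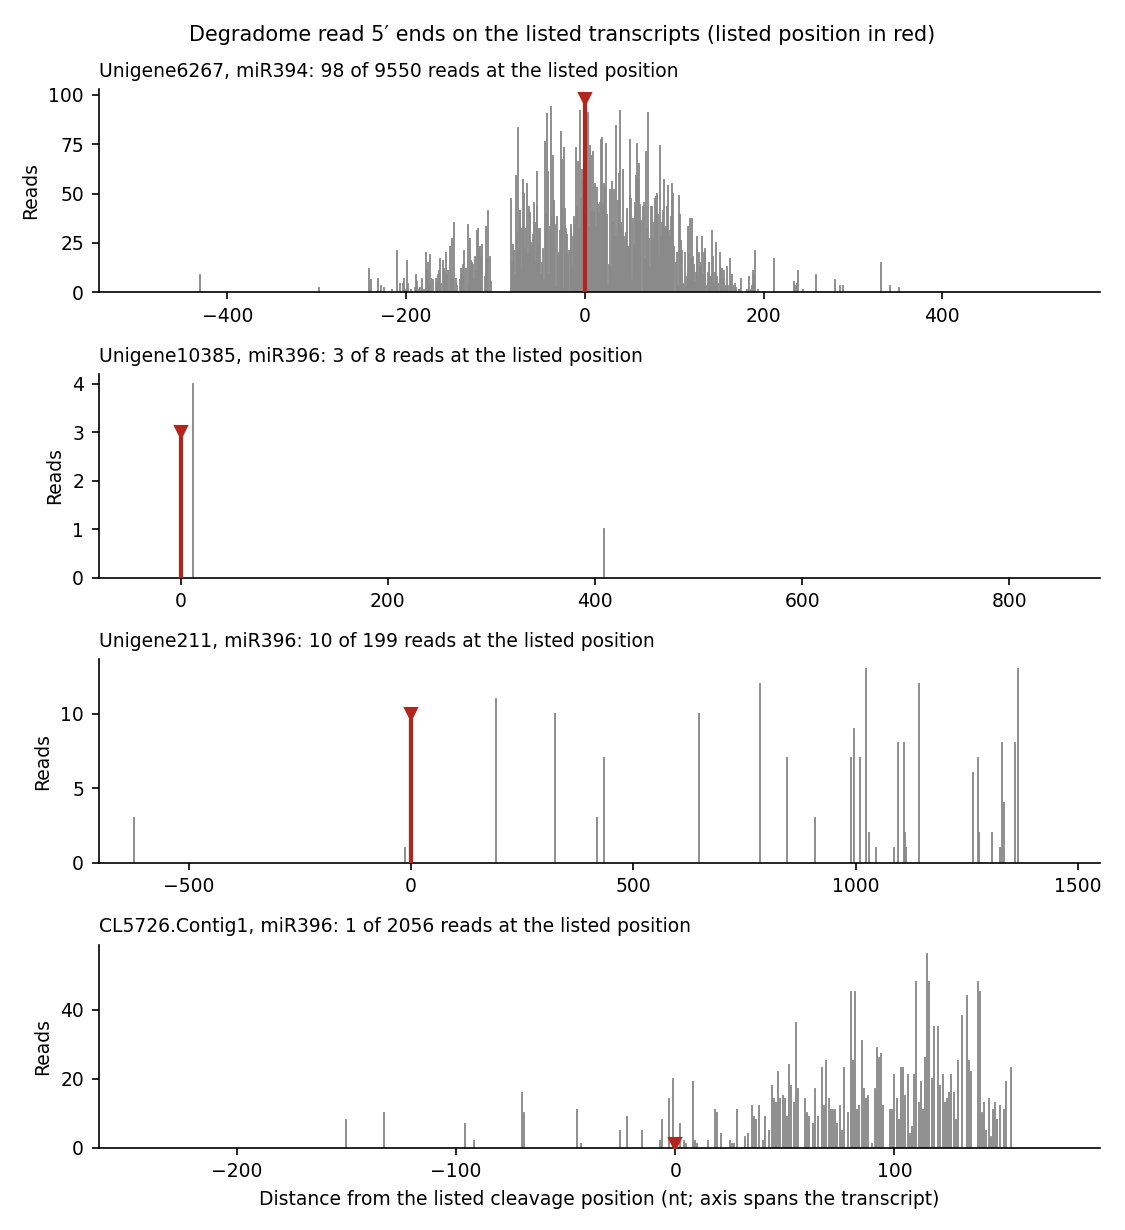
Degradome reads by the position of their 5′ end on the 4 listed transcripts, as distance in nt from the listed cleavage position (red, with a marker). On Unigene6267 the 98 reads at the listed position stand within a broad hump with neighbours up to 94, Unigene10385 holds 8 reads in all, and on Unigene211 and CL5726.Contig1 other positions hold more reads (13 and 56) than the listed ones (10 and 1).

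Against all 69 listed positions, those of miR394 and miR396 were spread from the upper part to near the bottom by share of transcript reads. Ranked by that share, Unigene10385 was at place 18, Unigene211 at 36, Unigene6267 at 47 and CL5726.Contig1 at 68, and the median share over all positions was 5.71%. By reads at the position, the 98 of Unigene6267 were above the median of 13, and the 10, 3 and 1 of the miR396 sites were below it. The listed position was the highest on its transcript for 1 of the 4 member positions and for 39.1% of all 69. Every position of category 0 was also the highest on its transcript, so this count and that of category 0 are not separate observations. Unigene6267 was at place 3 of the 64 transcripts in total reads, and Unigene10385 at place 62, with a median of 532 reads per transcript. The share at a position and the reads on its transcript run against each other in the plot, and transcript reads enter both axes.

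**Figure D5:**
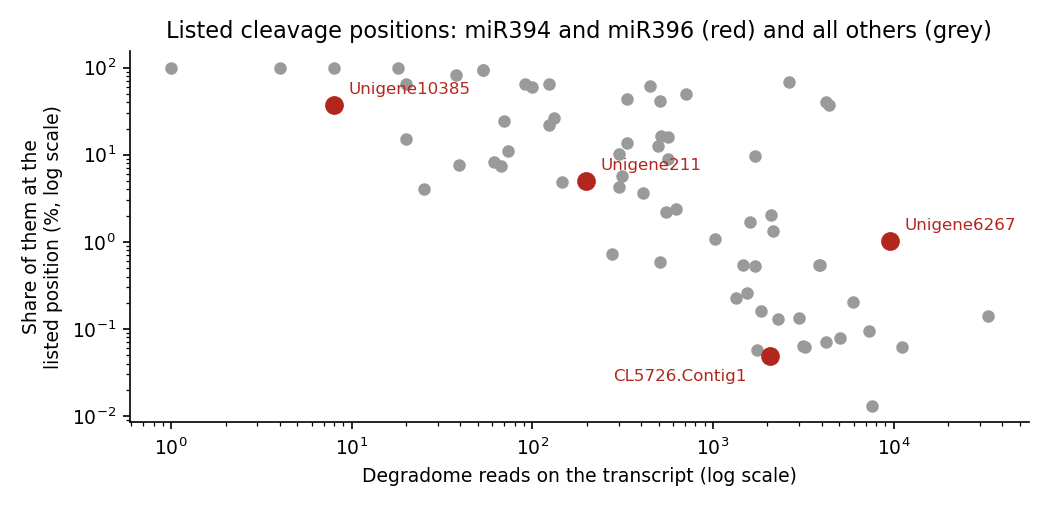
Share of a transcript's degradome reads at the listed cleavage position against all reads on that transcript, both on log scales, for the 69 listed positions. miR394 and miR396 positions are red and labelled, others grey. Unigene6267 has 1.03% of 9550 reads, Unigene211 5.03% of 199, Unigene10385 37.5% of 8 and CL5726.Contig1 0.0486% of 2056.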

How the data were processed

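The labels' protocols state Trizol extraction, pooling of equal RNA amounts from the 3 organs, a TruSeq small RNA library, and a degradome library from poly(A) RNA. No aligner, target caller or build is named in the sources used. Values of the small RNA table are expected or estimated counts, raw reads per entry as deposited, divided by the authors among entries that share them. Per the file headers, a value counts the isoform reads of an arm, so a printed sequence stands for its cluster. The folding energy and its index (deposited scores) and GC content were used as listed. Degradome reads per position, and the category, p-value and alignment score, are the authors' deposited values.

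Reads were summed over the entries of a sequence. Exact (Clopper-Pearson) 95% intervals used totals rounded to whole reads. Arms were taken from the listed hairpin side. Precursors were aligned globally (match 1, mismatch -1, gap opening -2, extension -0.5). The work used Python 3.11.15, SciPy 1.17.1, Biopython 1.88 and matplotlib 3.10.9. Every member is accounted for, and those of at least 10 reads and every listed transcript are named. The members and lists were chosen with earlier results of these data known.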

Additional observations from a re-analysis of the deposited data

How the results depend on the processing

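Of 43 alternative values, 30 stayed within the interval, place or count given above, and 13 moved. Some of the 30 could not move, so their number is no measure of stability. For example, miR394 has 1 listed sequence, and all reads on Unigene211, Unigene6267 and Unigene10385 matched 1 place alone. Taking the highest entry of each sequence in place of the sum gave 0.0142% for miR394 and 0.175% for miR396, and place 9 for miR394 among the leaf growth families (chosen after seeing the data). Without the most abundant sequence of the table the shares were 0.181% for miR394 and 1.96% for miR396, since the denominator is smaller. With placed sequences alone, miR396 had 0.275% of the reads and 4.78% of its reads on the 3p arm, because mtr-miR396b-3p drops out. With 1 nt on either side of the listed position, the shares were 2.57% on Unigene6267 and 1.02% on CL5726.Contig1. With reads that match 1 place alone, the share on CL5726.Contig1 was 0 of 6 reads. Under each of 3 stricter readings of the authors' deposited table (category 0, category 0 or 1, p no higher than 0.05), miR396 had 0 listed transcripts. No paired analysis was possible because each table is 1 library of its own kind. Among the 4 transcripts described here, Unigene10385 had the fewest degradome reads, 8, and the widest interval of the share at its listed position (8.52 to 75.5%).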
